A study of Mus musculus with 12 samples.

Results

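The effect that the knockdown virus and the overexpression virus of lncRNA5251 had in common was measured in mouse testis. All 12 RNA-sequencing libraries of the series entered 1 fit of 4 groups, and the contrast was the mean of 2 differences, F0_5251KD minus F0_3NC (the knockdown arm) and F0_5251OV minus F0_5NC (the overexpression arm). A log2 fold change (the difference of log2 levels, 1 unit being a doubling) on this contrast is called the shared effect here. It is high or low where the viruses with an lncRNA5251 sequence moved a gene the same way, but also where 1 arm alone moved it strongly. Of the 20718 genes in the table, 16296 passed the filter on low counts and were tested.

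Each group had 3 libraries from the testis of male mice, whose strain the labels write as IRC and the study's methods as ICR, an outbred stock. Lentivirus was injected into the testis at 4 weeks of age, and the mice were kept to 9 weeks and mated before collection. In F0_5251KD the virus carried a mixture of short hairpin RNAs against lncRNA5251 in the LV3 backbone, and F0_3NC got the negative control of that backbone. In F0_5251OV the virus carried lncRNA5251 in the LV5 backbone, and F0_5NC got the LV5 vector alone. All 12 libraries thus came from injected testes, and the backbone is the same within an arm and differs between the arms. Part of the supplementary methods names another transcript, lncRNA8276, as the one injected, while the labels give lncRNA5251 throughout. Whether each library is its own animal is not stated in the labels, so a p-value here covers library-to-library spread, which may be technical. The arms share no library.

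A lentivirus brings RNA and DNA into the cell, and both can be read by sensors that switch on interferon-stimulated genes and antigen presentation. Hairpin RNAs pass through the RNA interference machinery, which cuts RNAs that match them. The testis holds germ cells in tubules lined by Sertoli cells, with Leydig cells and resident macrophages between the tubules, and immune responses are normally held low in it. A gene that moves the same way when a transcript is lowered and when it is raised does not follow the dose of that transcript, which is the question this contrast puts to the data.

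The hairpin sequences are shown because they give the place that the knockdown virus was aimed at. Each had a single exact match among the 141767 GENCODE transcripts, in the sense direction, in the 1 exon of Purb (chromosome 11, minus strand, mm10), a single-stranded DNA- and RNA-binding protein gene. The matches lie at chr11:6468416-6468436, chr11:6467969-6467989 and chr11:6468248-6468268, in the 3′ untranslated stretch beyond the coding part (6474915 to 6475886). In their order they read:
hairpin 1: gctgggacttaatgtccttct
hairpin 2: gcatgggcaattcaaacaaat
hairpin 3: gcttattatgcatcgtaaacc

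Purb (gene ID 19291) was counted at 76.3, 92.3 and 73.9 CPM in F0_3NC and at 79.6, 72.8 and 72.2 CPM in F0_5251KD (CPM, the count scaled to a common library size after TMM normalisation, which corrects the library totals for composition). It had 74.8, 68.4 and 75.6 CPM in F0_5NC and 80.2, 74.9 and 70.2 CPM in F0_5251OV. The 4 groups overlapped, and the shared log2 fold change was -0.03 (95% interval -0.18 to 0.11, edgeR adjusted p 1). By arm Purb had -0.11 with knockdown and 0.04 with overexpression (unadjusted edgeR p 0.255 and 0.655). Reads of lncRNA5251 cannot be told apart from those of Purb where they overlap, and no separate entry for lncRNA5251 was used here. Its lowering in F0_5251KD and its raising in F0_5251OV were therefore not checked in any library, and the groups are taken as labelled. The RNA interference genes also lay near 0: none of the 13 tested (Ago1 to Ago4, Dicer1, Drosha and their partners) had an unadjusted p under 0.05 on the shared effect, and their median was -0.03.

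Depth was nearly equal over the libraries (15431383 to 16355720 estimated counts), and TMM factors lay between 0.97 and 1.078. Testis identity was plain, with Prm1 at 9805.32 to 12381.07 FPKM (fragments scaled to transcript length and library total), Ddx4 at 211.08 to 275.72, Insl3 at 1322.2 to 3541.05 and Sox9 at 2.23 to 5.06. RNA came from whole testis, so fewer cells of a type and less RNA per cell cannot be told apart in any value below.

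Across all genes the shared effect was small. A single gene, Cdh22, passed an adjusted p of 0.05 by edgeR's quasi-likelihood test, 0.00614% of the genes tested. At an unadjusted p under 0.05 there were 604 genes, fewer than the 815 that are 5% of the genes tested, of which 239 (1.47%) were higher and 365 (2.24%) lower in the testes with an lncRNA5251 sequence. The median shared log2 fold change over all genes was 0.000317, and 50.1% of the genes were above 0. DESeq2 called 12 genes, 5 higher and 7 lower, with 465 at an unadjusted p under 0.05. Its lower calls were Cdh22, Neu1, Dock5, Gm1966, H2-Ab1, Gm41476 and Zmynd8, and its higher calls were Ckap4, Btg2, Gm40498, Gm39972 and Phyhip, of which the last 4 had an unadjusted p under 0.05 in 1 arm alone.

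Taken arm by arm, 773 genes (4.74%) had an unadjusted p under 0.05 with knockdown and 1429 (8.77%) with overexpression. Both lists held 25 genes with the same sign, which is 3.23% of the knockdown list and 1.75% of the overexpression list. Of these, 20 were lower in both arms (0.123% of the genes tested) and 5 were higher in both (0.0307%). A further 101 genes were on both lists with opposite signs, 13.1% and 7.07% of the lists. The same-sign genes were thus fewer than the opposite-sign ones. Beside the 3.23% and 13.1% of the knockdown list, 8.77% of all genes tested were on the overexpression list with either sign. A place on both lists with the same sign is therefore not taken as support for a shared change. When the larger of the 2 p-values was adjusted over all genes, the smallest adjusted value was 1. In a test of the difference between the arms edgeR called 0 genes (smallest adjusted p 0.105), although 1842 genes had an unadjusted p below 0.05, and DESeq2 called 35.

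**Figure D1:**
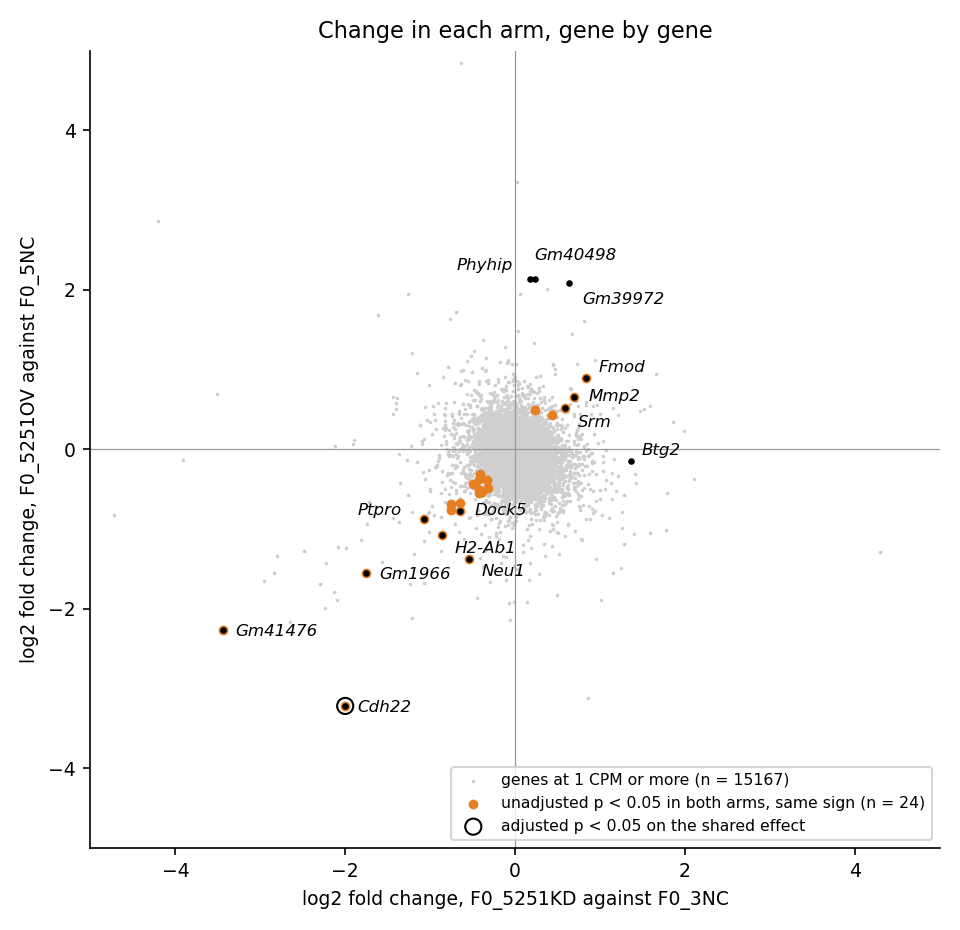
Log2 fold change of each gene at a mean of 1 CPM or more (15167 genes, grey) with knockdown (x axis) and with overexpression (y axis); 7 genes lie beyond the axes. Orange points are the 24 such genes with an unadjusted p under 0.05 in both arms and the same sign, the ring marks Cdh22, the 1 gene past an adjusted p of 0.05, and the labelled genes are among those described; most orange points lie in the lower left, where both arms are lower.

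Cdh22 encodes cadherin-22, a calcium-dependent adhesion molecule (gene ID 104010, chromosome 2, 165111501 to 165234924). It was counted at 1.48, 5.41 and 6.01 CPM in F0_3NC and at 0.953, 0.713 and 1.53 CPM in F0_5251KD. In the overexpression arm it had 9.53, 10.6 and 5.69 CPM in F0_5NC and 0.815, 0.718 and 1.23 CPM in F0_5251OV. Every F0_5251OV library was below every F0_5NC library, while in the knockdown arm 1 control library, F0_3NC replicate 1, lay within the range of the knockdown libraries. Cdh22 fell with a shared log2 fold change of -2.61 (standard error, SE, 0.331, 95% interval -3.32 to -1.90, edgeR adjusted p 0.0349). It was -2.0 with knockdown and -3.22 with overexpression, and the arms differed with an unadjusted p of 0.0966. The counts behind it were low, between 11 and 161 per library. The sign was the same in all 21 alternatives, but the adjusted p passed 0.05 in 7 of them, with a range of 3.3e-11 (DESeq2) to 0.211.

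Few other adhesion and junction genes stood out. Of 24 tested tight junction, cadherin and connexin genes, Cdh22 was the 1 member with an unadjusted p under 0.05, and the list's median shared log2 fold change was -0.06. Cdh2 (N-cadherin) had -0.12, the Sertoli cell claudin Cldn11 -0.21 and the adhesion receptor Vcam1 -0.21. Of the 46 tested genes within 1 Mb of Cdh22, Zmynd8 (-0.72) and Sdc4 (-0.23) were lower and Slpi (1.51) higher at an unadjusted p under 0.05, and the median of all 46 was -0.03. The overexpression arm carried Slpi (-0.31 with knockdown and 3.33 with overexpression) and Sdc4 (-0.06 and -0.40). Slpi was near the floor, with counts of 0, 1 and 2 in F0_5NC. Zmynd8, a chromatin reader, lies 673 kb away and was lower in both arms (-0.75 and -0.69), but 100% of its counts were not whole, which means that reads were shared out with other genes.

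Neu1, a lysosomal sialidase (gene ID 18010, chromosome 17, 34931253 to 34937297), came next. It was counted at 10.3, 5.90 and 9.12 CPM in F0_3NC and at 6.61, 5.71 and 5.11 CPM in F0_5251KD. In F0_5NC it had 10.5, 12.2 and 9.85 CPM, and in F0_5251OV 4.14, 4.76 and 3.62 CPM. With overexpression the groups were fully apart, and with knockdown F0_3NC replicate 2 overlapped. The shared log2 fold change was -0.96 (SE 0.140, edgeR adjusted p 0.0852), made up of -0.54 and -1.38, and this difference between the arms had an unadjusted p of 0.00987. Without F0_3NC replicate 2 Neu1 was the 1 gene called in place of Cdh22.

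Dock5, an exchange factor that activates the GTPase Rac (gene ID 68813, chromosome 14, 67751928 to 67933572), had similar values in the arms. It was counted at 21.1, 15 and 17.8 CPM in F0_3NC against 10.2, 9.53 and 14.6 CPM in F0_5251KD. In F0_5NC it had 13.9, 16.7 and 17.4 CPM against 9.78, 8.88 and 9.50 CPM in F0_5251OV. Within each arm the groups did not overlap, and the log2 fold changes were -0.65 and -0.77 (shared -0.71, SE 0.119, edgeR adjusted p 0.237).

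H2-Ab1, the beta chain of an MHC class II molecule (gene ID 14961, chromosome 17, 34263227 to 34269418), was lower in all 6 treated libraries than in any of the 6 control libraries. It was counted at 15.5, 26.8 and 20.4 CPM in F0_3NC and 14.9, 11.7 and 7.98 CPM in F0_5251KD. It had 22.5, 28.7 and 15.9 CPM in F0_5NC and 8.96, 9.14 and 13.9 CPM in F0_5251OV. The gap between the lowest control and the highest treated library was small, and the shared log2 fold change was -0.96 (SE 0.192, edgeR adjusted p 0.482). Gm1966, a gene model on chromosome 7 (106595549 to 106644646), was apart in the same way, at 1.41 to 3.24 CPM in the 6 control libraries and 0.392 to 1.29 CPM in the 6 treated ones. Its shared log2 fold change was -1.65 (SE 0.308), and in 83.3% of the libraries its count was not whole, so reads shared with near copies make it uncertain.

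**Figure D2:**
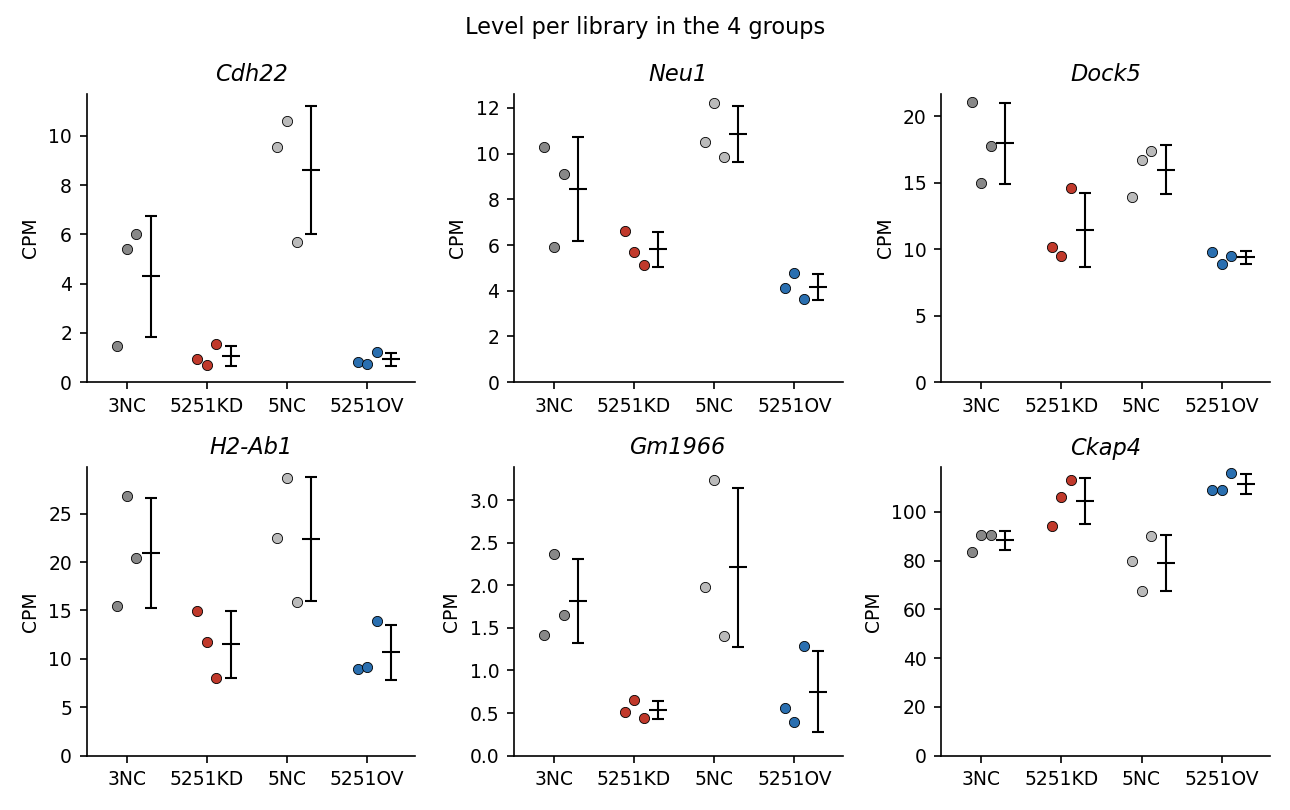
CPM of 6 genes in each library (points; y axis from 0) with the mean and SD of the 3 libraries of a group (bar and whiskers beside the points); group names on the axis leave off the prefix F0_. Cdh22, Neu1, Dock5, H2-Ab1 and Gm1966 were lower and Ckap4 was higher on average in F0_5251KD and F0_5251OV than in their controls, with 1 low F0_3NC library in Cdh22.

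Genes whose groups did not overlap in either arm were counted without a model. There were 41 lower in both arms (0.252% of the genes tested) and 24 higher in both (0.147%). Of the 16296 genes tested, 14 were lower and 8 were higher in all 6 treated libraries than in any of the 6 control libraries. With 3 libraries per group such gaps also arise by chance. These counts were not tested against it and are no evidence of a shared change. At a mean of 1 CPM or more, the lower genes apart in all 12 libraries with the smallest p after Gm1966 and H2-Ab1 were Ccl22 and Zfp386. Ccl22 is a chemokine that attracts T cells, and Zfp386 is a zinc finger protein. Ccl22 was counted at 8.57 to 10.5 CPM in the 6 control libraries and 6.27 to 8.18 CPM in the treated ones (shared log2 fold change -0.40, SE 0.0894). Zfp386 had 11.6 to 15.9 CPM against 9.53 to 11.6 CPM (-0.40, SE 0.0927), with edges that are equal to the digits shown. Lair1, an inhibitory receptor of white blood cells (-0.84), Lhx1, a LIM homeobox factor (-0.69), and Chgb, a protein of secretory granules (-0.35), were apart in the same direction.

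Ckap4, a membrane protein of the endoplasmic reticulum (gene ID 216197, chromosome 10, 84526305 to 84533888), led the higher genes. It was counted at 83.6, 90.6 and 90.7 CPM in F0_3NC and 94.2, 106 and 113 CPM in F0_5251KD. It had 79.8, 67.4 and 90.0 CPM in F0_5NC and 109, 109 and 116 CPM in F0_5251OV, so all treated libraries were above all controls. The shared log2 fold change was 0.37 (SE 0.0709, edgeR adjusted p 0.474), from 0.24 and 0.49. The other 4 genes on both lists with a higher sign were Srm, which makes spermidine (0.59 and 0.52), Fmod, a collagen-binding proteoglycan (0.83 and 0.89), Mmp2, a gelatinase of the matrix (0.69 and 0.66), and Tagap, a GTPase-activating protein of lymphocytes (0.43 and 0.43). Srm had 6.69 to 9.09 CPM in F0_3NC against 10.2 to 14.5 with knockdown, and 5.35 to 8.39 CPM in F0_5NC against 8.90 to 11.4 with overexpression. Of the Tagap counts 91.7% were not whole.

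The other genes lower in both arms had varied roles. Csf1, the growth factor of macrophages, had -0.42 with knockdown and -0.55 with overexpression. Lcp2, an adaptor of T cell receptor signalling, had -0.75 and -0.76, and Ptpro, a receptor tyrosine phosphatase, -1.07 and -0.88. The rest included Sema4b, a semaphorin (-0.50 and -0.44), Eef2k, the kinase of elongation factor 2 (-0.41 and -0.31), Syt12, a synaptotagmin (-0.65 and -0.68), and Trpm3, a cation channel (-0.47 and -0.44). Gm41476 had the largest shared value of the 25 by size, -2.85. It was counted at 1.55 to 3.90 CPM in F0_3NC against 0.127 to 0.259 with knockdown, and at 1.34 to 11.9 CPM in F0_5NC against 0.587 to 1.55 with overexpression, but 100% of its counts were not whole. The 20 were completed by Podn (shared -0.97, on low counts of 4 to 18 per library), Lgi2 (-0.47) and Fam160a1 (-0.47). By edgeR no adjusted p of the genes in this paragraph passed 0.05.

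High places on the shared contrast could also come from 1 arm alone. Btg2, an antiproliferative immediate early gene (gene ID 12227), was counted at 24, 23.5 and 22.1 CPM in F0_3NC and 56.9, 50.9 and 72.0 CPM in F0_5251KD. In the overexpression arm it had 5.39, 4.03 and 3.90 CPM against 3.32, 3.72 and 5.04 CPM. Its shared log2 fold change of 0.61 was thus the mean of 1.37 and -0.15, whose difference had an unadjusted p of 3.45e-05. Gm40498 (0.18 and 2.14), Phyhip (0.24 and 2.14) and Gm39972 (0.64 and 2.08) were the reverse case, with the overexpression arm carrying the value. For both Gm40498 and Gm39972 100% of the counts were not whole, so reads shared with other genes make them uncertain. The alcohol dehydrogenase Adh4 (0.28 and 0.73) and the AP-1 factor Fosb (1.0 and 0.45) lay between.

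The gene groups were read by their counts beside those of all genes, where 18.8% were lower in both arms and 17.4% higher in both by sign alone. Among the lists with more than 10 genes tested, interferon-stimulated genes had the lowest median. Of 49 tested, 43 were lower on the shared effect, 33 (67.3%) were lower in both arms, and 15 (30.6%) had an unadjusted p under 0.05 in the lower direction, with none in the higher. None passed an adjusted p of 0.05, and the list's median shared log2 fold change was -0.42 (-0.20 with knockdown and -0.51 with overexpression). The 15 included Ifit1, Ifit3 and Isg15, antiviral effectors, and the guanylate-binding and immunity-related GTPases Gbp2, Gbp3, Gbp7, Igtp and Irgm1. The members with the smallest p on the shared effect were carried by the overexpression arm, Lgals3bp, a secreted glycoprotein, with 0.12 and -0.76 and Ly6e, a membrane-anchored protein, with -0.02 and -0.91.

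Read library by library, few control libraries carried these values. Igtp was counted at 1.80, 20.3 and 2.51 CPM in F0_3NC against 2.73, 0.973 and 1.53 CPM with knockdown. In F0_5NC it had 7.19, 29.5 and 1.85 CPM against 3.70, 1.24 and 4.65 CPM with overexpression. The replicates numbered 2 of both control groups were high, and the other control libraries overlapped the treated ones except F0_5NC replicate 1. The summed level of the 49 genes was 708.2 CPM in F0_3NC replicate 2 and 661.2 CPM in F0_5NC replicate 2, against 377.7 and 378.3 CPM in the other F0_3NC libraries and 545.7 and 405.4 CPM in the other F0_5NC libraries. The knockdown libraries had 378.9 to 427.8 CPM and the overexpression libraries 348.8 to 421.9 CPM. When both control libraries numbered 2 were left out, a choice made after seeing these values, the list's median was -0.05, 22.9% of 48 genes were lower in both arms (21.2% of all genes) and 2 had an unadjusted p under 0.05. Igtp then had -0.41 in place of -2.12 and Gbp2 -0.13 in place of -1.99.

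The promoters of these genes are shown for the motif that interferon-activated factors bind, GAAANNGAAA, read on both strands of the stretch from 250 bases before to 50 after the start (RefSeq, mm10). Matches of the motif may overlap each other. Of the 49 genes 38 had a promoter in the table, and 19 of these (50%) held the motif, against 465 of the 12893 tested genes with a promoter (3.61%). Of all 32851 promoters, 1131 (3.44%) held it. The 19 had a median shared log2 fold change of -0.79 and the 19 without it -0.27, which became -0.06 and -0.03 without the control libraries numbered 2. Ifit3 and Igtp were named by rank, Gbp3 and Gbp2 after their values were seen. In each window 1 match is marked. The Gbp3 window holds a further match, with its first base at -39 from the start, that overlaps the marked one. The motif is in capitals (reversed where it reads TTTC), and the windows are chr19:34583363-34583392, chr11:58199512-58199541, chr3:142559989-142560018 and chr3:142620594-142620623, all on the plus strand:
Ifit3: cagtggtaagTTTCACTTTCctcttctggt
Igtp: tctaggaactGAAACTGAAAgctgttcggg
Gbp3: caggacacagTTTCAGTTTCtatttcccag
Gbp2: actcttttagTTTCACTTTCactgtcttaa

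**Figure D3:**
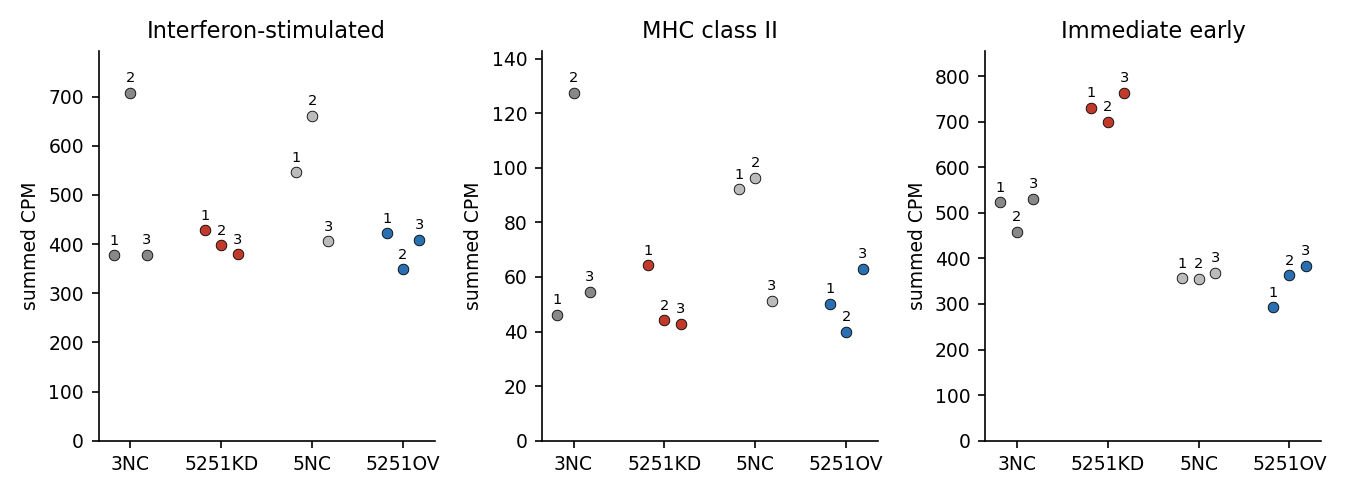
Summed CPM of the tested members of 3 gene lists in each library (y axis from 0; digits give the replicate number). In the interferon-stimulated and MHC class II panels the replicates numbered 2 of both control groups are the highest libraries, and in the immediate early panel the 3 knockdown libraries are above all others.

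The MHC class II genes present peptides on antigen-presenting cells. Of 7 tested, 5 were lower in both arms and 3 had an unadjusted p under 0.05 (H2-Ab1, H2-Eb1 and Ciita, the master activator of the class), with a median of -0.76. Their summed level was 127.6 CPM in F0_3NC replicate 2 and 96.4 CPM in F0_5NC replicate 2, and F0_5NC replicate 1 was as high at 92.23 CPM. The other 3 control libraries, at 46.14, 54.63 and 51.23 CPM, lay within the 40.01 to 64.31 CPM of the 6 treated libraries. Ciita had 2.25 and 2.18 CPM in the control libraries numbered 2 and 0.0635 to 0.439 CPM in the treated libraries. It passed the filter on low counts through those control libraries and was not tested without them, so its p adds no support. Without those control libraries the median of 6 genes was -0.09, H2-Eb1 had -0.45 in place of -0.87, and H2-Ab1 kept -0.75.

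Antigen processing for MHC class I gave a smaller value. Of 16 genes tested, 10 were lower in both arms and Tapbp (-0.25) and Psme1 (-0.32) had an unadjusted p under 0.05, both with values near 0 in the knockdown arm (-0.02 and -0.11). The median was -0.22, and 0 without the control libraries numbered 2. All 10 complement genes were lower on the shared effect, 6 of them in both arms, with a median of -0.22 (-0.02 with knockdown and -0.45 with overexpression). Without the control libraries numbered 2 the complement median was again -0.22, but as the mean of unlike arms (0.24 and -0.64), with 3 genes lower in both. A single library weighed on the overexpression arm. The summed complement level was 315.9 CPM in F0_5NC replicate 1, against 162.5 and 177.1 CPM in the other F0_5NC libraries. With overexpression it was 139.8 to 162.6 CPM. In the fit of all libraries Cfb, a protease of the alternative pathway, was the 1 complement gene with an unadjusted p under 0.05 (-0.62). Jchain, the joining chain of antibodies, had 1.42, 5.90 and 6.28 CPM in F0_3NC against 1.84, 1.17 and 2.75 CPM with knockdown. Its F0_5NC libraries had 7.73, 1.59 and 5.56 CPM against 1.32, 2.35 and 0.969 CPM with overexpression, so both arms overlapped. Its shared log2 fold change was -1.46, and -1.55 without the control libraries numbered 2.

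The sensors upstream of interferon gave no such pattern: of 16 tested, 4 were lower in both arms and none had an unadjusted p under 0.05 (Ifih1 -0.34, Tlr3 -0.29). Markers of white blood cells were measured beside these groups. Of 17 macrophage genes 13 were lower on the shared effect and 5 in both arms, with summed levels of 152 to 227 CPM in F0_3NC, 178 to 239 with knockdown, 185 to 261 in F0_5NC and 166 to 176 with overexpression. Of 15 T and NK cell genes 7 were tested (not Cd3e, Cd8a, Trac or Gzmb) and 4 were lower in both arms, with 11.9 to 18.3, 13.2 to 18.5, 13.1 to 17.4 and 12 to 17.4 CPM in the same order. Of 14 B cell genes 4 were tested (not Cd79a, Cd79b, Ighm or Igkc) and 2 were lower in both arms, with 3.22 to 9.25, 3.37 to 5.24, 3.44 to 10.9 and 3.3 to 4.18 CPM. Their part in the interferon and MHC values was not tested. Chemokines were mixed, with Ccl7 (-1.03), Ccl12 (-1.20) and Cxcl9 (-1.34) lower and Il1b (0.41) and Cxcl13 (1.72) higher at an unadjusted p under 0.05 among 12 tested. Without the control libraries numbered 2 the lower genes had -0.69, -0.64 and -0.24, none at an unadjusted p under 0.05, and Il1b had 0.46 and Cxcl13 2.14. In that fit the chemokine Ccl8 was also higher at an unadjusted p under 0.05, with 1.53 (edgeR adjusted p 0.167). It had 1.87 with knockdown and 1.2 with overexpression, but was not among the genes at that p in the fit of all libraries.

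Neu1 and H2-Ab1 both lie in the major histocompatibility region, 668 kb apart. Of the 92 tested genes within 1 Mb of Neu1, Cfb, H2-Eb1 and H2-Ab1 were lower and H2-Ob, a modulator of MHC class II loading, was higher (2.2) at an unadjusted p under 0.05, and the median of all 92 was 0.01. H2-Ob was low, at 0.0608 to 0.396 CPM in the 6 control libraries, 0.195 to 1.27 CPM with knockdown and 1.37 to 2.07 CPM with overexpression. H2-Aa, the alpha chain that pairs with H2-Ab1, had -0.76 and the complement gene C4b -0.45, without reaching that p. Without the control libraries numbered 2, H2-Aa had -0.14, as the mean of unlike arms (0.4 with knockdown and -0.69 with overexpression). C4b then had -0.48, likewise from unlike arms (0.13 and -1.1).

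**Figure D4:**
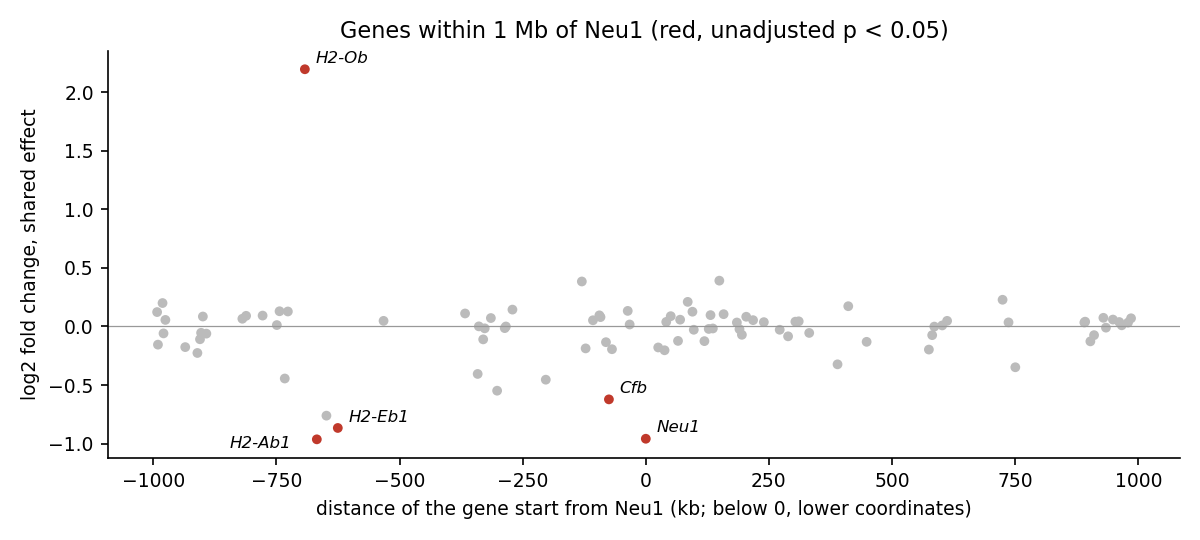
Shared log2 fold change (y axis) of Neu1 and the 92 tested genes within 1 Mb of it, by the distance of their starts in kb (x axis). Red points have an unadjusted p under 0.05: Neu1, Cfb, H2-Ab1 and H2-Eb1 are lower and H2-Ob is higher, while the median of the 92 neighbours is 0.01 and H2-Aa lies at -0.76. All values are from the fit of all libraries.

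Immediate early genes, which cells switch on within minutes of a stimulus, had the highest median of the lists, 0.26, but not as a shared change. Of 25 tested, 20 were higher on the shared effect and 10 had an unadjusted p under 0.05 in that direction, while 18 had opposite signs in the arms, and 4 were higher in both. The list's median was 0.57 with knockdown and -0.17 with overexpression. Zfp36, which speeds the decay of RNAs, had 0.91 and -0.17, and Ier2 1.41 and -0.31. All 3 knockdown libraries, at 699.7 to 764.2 CPM summed over the list, were above the other 9, and F0_3NC (458.8 to 530.9) was above F0_5NC (355.7 to 369.0).

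Gene lists of somatic cells also took opposite signs in the arms. Leydig cell genes had a median of 0.18 with knockdown and -0.22 with overexpression, smooth muscle genes 0.14 and -0.32, endothelial genes 0.25 and -0.31, and adipocyte genes 0.65 and -0.91. Their shared medians lay between -0.14 and 0.08, and 12 of 14 smooth muscle and 11 of 12 endothelial genes had opposite signs. Single libraries weighed on these values: the summed Leydig level was 3409 CPM in F0_5251KD replicate 1 (2256 and 2590 in the others) and 3374 CPM in F0_5NC replicate 1 (2068 and 2490). The adipocyte sum was 70.6 CPM in F0_5251KD replicate 1, while the other knockdown libraries, at 31.12 and 31.3 CPM, lay within the F0_3NC range of 31.05 to 47.19, and the shared adipocyte median was -0.54 to 0.10 with 1 library left out. Plin1, a coat protein of lipid droplets, gave 1.40 and -1.06, which the mean reduced to 0.17. Sertoli cell genes had medians of 0.07 with knockdown and -0.25 with overexpression, and 11 of 17 had opposite signs. Their shared median was -0.13, with Sox9, which sets Sertoli cell fate, at -0.32, and 6 of the 17 were lower in both arms. The summed Sertoli level was 1643 CPM in F0_5NC replicate 1, against 1180 and 1157 CPM in the other F0_5NC libraries.

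Germ cell genes lay at the centre of the distribution. The shared medians were -0.01 for spermatogonia, -0.01 for meiotic spermatocytes, 0.03 for round spermatids and 0.02 for elongating spermatids, and none of the genes in these 4 lists except Spo11, which makes the breaks of meiosis (-0.28), had an unadjusted p under 0.05. Prm1 had 0.06 and Catsper1, a sperm calcium channel, 0.07. Matrix genes had a median of 0.04, with Mmp2 higher and the basement membrane collagens Col4a1 (-0.38) and Col4a2 (-0.19) lower. Heat shock, p53, hypoxia, clock, glucocorticoid and cholesterol synthesis genes had medians between -0.05 and 0.03. Among them, Cry1 (0.20), Bhlhe41 (-0.45), Errfi1 (0.18) and Ndrg1 (-0.19) had an unadjusted p under 0.05.

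Markers of the epididymal duct differed widely between libraries. All 7 tested were lower on the shared effect (median -0.47), 6 of them in both arms, with none at an unadjusted p under 0.05. Crisp1, a secreted protein of the epididymis, was counted at 0.322, 1.22 and 5.95 CPM in F0_3NC against 0.127, 0.0648 and 0.0639 CPM with knockdown. It had 9.77, 93.8 and 89.9 CPM in F0_5NC against 63.6, 45.2 and 0.194 CPM with overexpression. The summed level of the 7 genes was 37.6 to 45.4 CPM in F0_3NC, 33.7 to 38.9 with knockdown, 51.4 to 167 in F0_5NC and 42.2 to 122 with overexpression, while 6 of the 13 listed, among them Lcn5, Lcn8 and Lcn9, did not pass the filter or are not in the table. The part of this tissue in the other values was not tested. Globin and red cell genes (median 0) and skeletal muscle genes (median 0.14) gave no unadjusted p under 0.05.

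**Figure D5:**
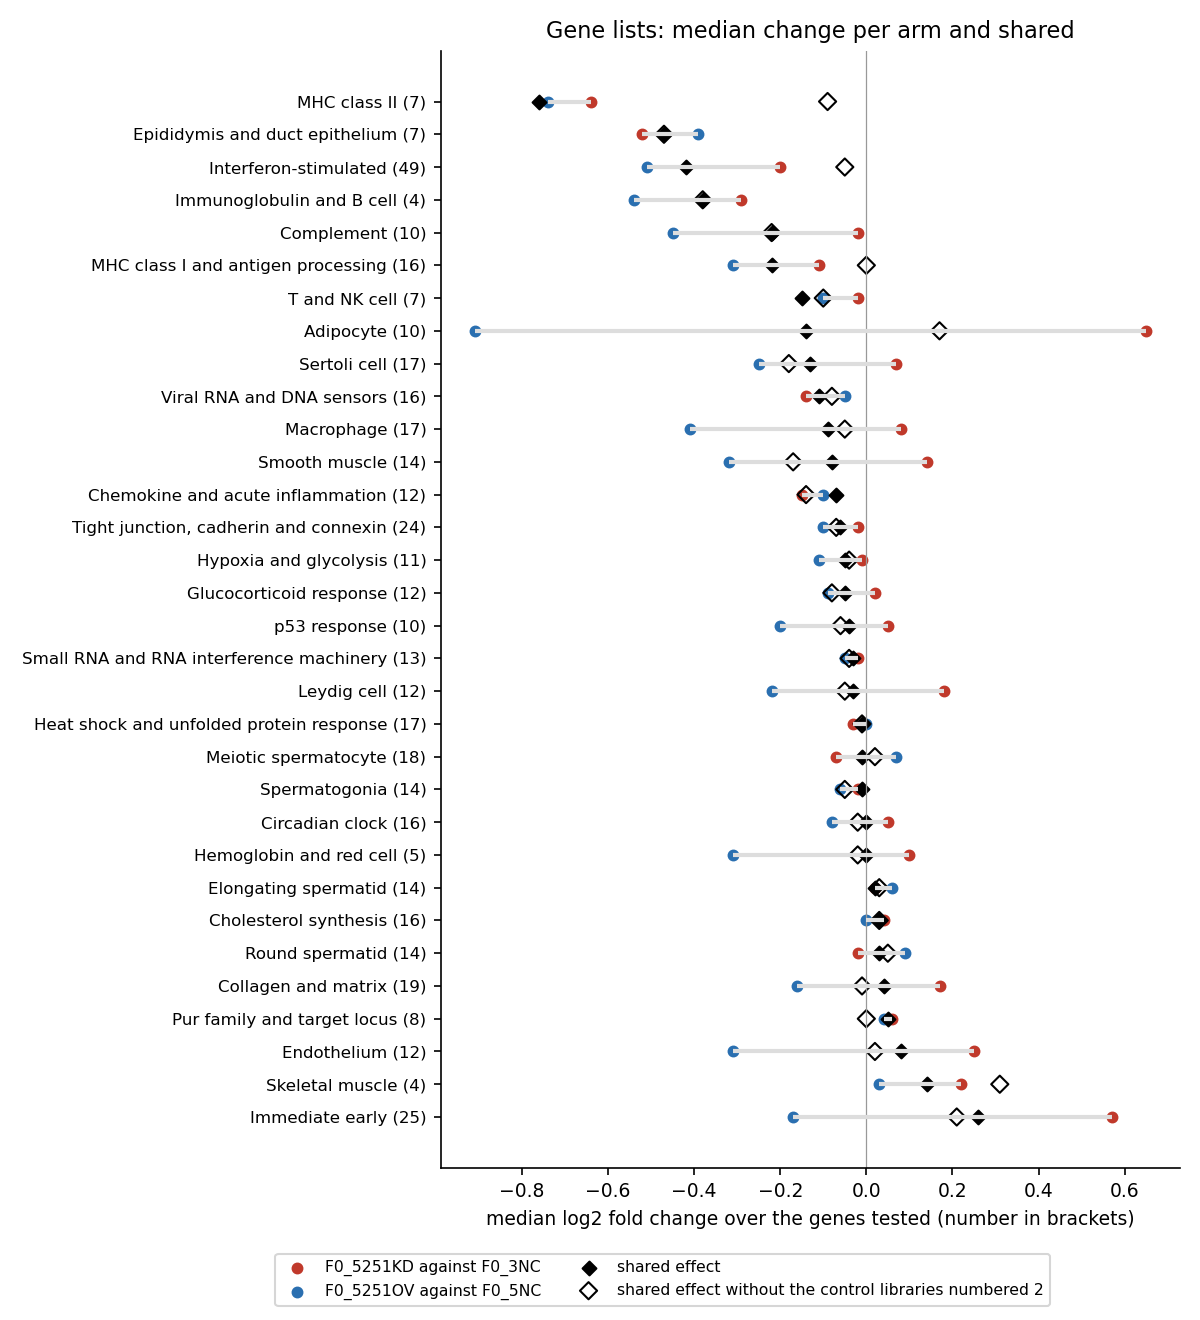
Median log2 fold change (x axis) of each of 32 gene lists (number of genes tested in brackets) with knockdown (red), with overexpression (blue), on the shared effect (filled diamond), and on the shared effect without the control libraries numbered 2 (open diamond). MHC class II and interferon-stimulated genes move from -0.76 and -0.42 to -0.09 and -0.05, and somatic lists such as adipocyte, endothelium and smooth muscle have their arms on opposite sides of 0.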

How the data were processed

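Testis RNA was measured in 12 libraries, 3 per group, grouped by the labels. Per the study's methods, messenger RNA was enriched with oligo(dT) beads, primed with random hexamers, sequenced on an Illumina instrument and mapped with SOAPaligner. No strand-marking step is named, so overlapping genes on opposite strands cannot be told apart. The build is mm10 per the labels. Which program wrote the estimates was not given in the sources.

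For every gene, the authors deposited estimated counts and FPKM values. Estimates were rounded, since 12% had a fractional part (tolerance 1e-06). The deposited FPKM values are scaled to length and library total by the authors. Another 18 per-sample columns match no sample of the series and were not used. Of its genes 20564 (99.3%) matched RefSeq (GRCm38.p6) by ID for coordinates.

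The fit used edgeR 4.0.16 in R 4.3.3 (TMM, filterByExpr, 4 group coefficients, 8 residual degrees of freedom, quasi-likelihood F test, two-sided), with Benjamini-Hochberg adjustment over all genes and a threshold of 0.05. CPM uses TMM-scaled totals. The study's own test was DEGseq, which has no such contrast. The edgeR test of the shared effect was checked on simulated counts with genes changed the same way in both arms. The other tests were not checked in this way.

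The contrast, gene lists and named genes were chosen with earlier results of these data known. Named genes have a mean of at least 1 CPM. They are the 8 higher and 8 lower genes with the smallest p on the shared effect and any called, the 5 higher and 5 lower with the largest smaller change among genes at an unadjusted p under 0.05 in both arms with the same sign, the 2 to 4 members of each list with the smallest p with its markers, and Purb. Further genes were named after their values were seen. Among them were the rest of those lower in both arms, those apart in all 12 libraries, neighbours and further list members. Podn, H2-Ob, Ciita, Ccl12, Cxcl13 and Slpi, which are under 1 CPM, were also named in this way. Some items are not reported here.

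Alternatives were DESeq2 1.42.0, upper-quartile scaling, other filters, limma 3.58.1 on log2(FPKM + 1) and log2(FPKM + 0.1), the replicate number as a block, an additive model of backbone and virus, separate fits per arm, a threshold of 0.1, leaving out each library, and leaving out both control libraries numbered 2 (added after seeing the data). Replicate numbers did not pair the libraries: of 18 same-numbered pairs, deviations from the group means correlated at -0.33 to 0.25, over 0.1 in 3. No 2 libraries of a group agreed within sampling noise (chi-square per gene 3.4 to 17.8).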

Additional observations from a re-analysis of the deposited data

How the results depend on the processing

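The single call on the shared effect depended on the processing. The count was 12 with DESeq2, 2 at an adjusted p under 0.1 (Cdh22 and Neu1), and 0 with limma on log2(FPKM + 1), with limma on log2(FPKM + 0.1) and with the additive model of backbone and virus. Leaving out 1 library gave 0 to 2 calls: 0 without F0_3NC replicate 3, F0_5NC replicate 1 or 2, F0_5251KD replicate 1 or 2, or any F0_5251OV library, 2 without F0_5251KD replicate 3 (Cdh22 and Dock5), and 1 without F0_3NC replicate 2, which was Neu1. Without both control libraries numbered 2 the 1 call was Neu1 (adjusted p 0.024), and Cdh22 had -2.42 (adjusted p 0.104).

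With the replicate number as a block, 0 genes were called on the shared effect (smallest adjusted p 0.117) and 26 genes had an unadjusted p under 0.05 in both arms with the same sign. The numbers do not pair the libraries.

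That count of both arms, 25 with all libraries, was 18 to 39 with 1 library left out (39 without F0_5NC replicate 3), 38 without both control libraries numbered 2 (12 of the 25 among them), and 29 with separate fits. The difference of the arms gave 35 calls with DESeq2, 1 with limma on log2(FPKM + 1) and 0 to 1 with 1 library left out, the 1 without F0_5NC replicate 3. The 21 genes named by the rule kept their direction in 440 of 441 alternative values, and the exception was Purb, -0.06 to 0.02 with 1 library left out (0.02 without F0_3NC replicate 2). Of the 441, 20 passed the threshold. The median of the interferon-stimulated list was -0.52 to -0.16 with 1 library left out, and that of MHC class II -0.95 to -0.17. With 3 libraries per group, small shared changes of single genes were not detectable: the median SE was 0.103 on the log2 scale.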
